A study of Mus musculus with 8 samples.

Results

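The cytosolic ribosomal protein genes are the 87 of 24420 gene symbols in the count tables that start with Rpl or Rps and a digit, or are Rplp0, Rplp1, Rplp2 or Rpsa. Of these, 53 belong to the large subunit and 34 to the small subunit. The rule left out 11 entries for ribosomal S6 kinases and Rps19bp1, which are no ribosomal proteins, and 7 entries named as pseudogenes. It kept 77 canonical genes and 10 paralogs, which are further copies of a canonical gene. The GENCODE M21 annotation lists the paralogs Rpl37rt and Rps4l as transcribed pseudogenes. The paralog Rps27rt is close to its canonical gene, with 91.1% of its 50-base windows shared with other genes, most often with Rps27.

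The values are read counts from poly(A) RNA of prefrontal cortical slices of male mice, from 8 libraries. The ROM group (n = 2) and the SAL group (n = 3) were heterozygous Shank3+/ΔC mice, which carry 1 copy of Shank3 without exon 21 and its C-terminal part, so every cell with this genotype keeps 1 intact copy. ROM mice received romidepsin, a histone deacetylase inhibitor, intraperitoneally at 0.25 mg/kg once daily for 3 days, SAL mice received saline, and prefrontal cortex was collected on day 1 after dosing ended. The WT group (n = 3) consisted of wild-type littermates for which no treatment is named, so genotype and the saline injections cannot be told apart between SAL and WT. The sample labels give an age of 5 to 6 weeks. The labels do not say that each library is a separate animal, so the p-values measure the spread between these libraries, which may be in part technical.

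Each ribosome carries 1 large and 1 small subunit, each a scaffold of ribosomal RNA clad in a set of small basic proteins. Every cell makes these proteins in matched amounts, and in mammals their messenger RNAs are abundant, short, and mostly begin with a run of pyrimidines (C and T in the gene) called the 5′ terminal oligopyrimidine (TOP) motif, through which the mTORC1 kinase sets their translation. In neurons ribosomes lie in the cell body and in dendrites, where local translation takes part in synaptic plasticity.

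Start sites of 6 genes with a pyrimidine run and of 2 without are shown because this motif is the shared sequence feature of the family. Sequences are from RefSeq on GRCm38.p6, with 15 bases before the annotated start and 15 from it onwards. The search, on the transcript strand only, looked for a C within 5 bases of the annotated start that is followed by at least 4 more C or T. Capitals mark the stretch from the first such C onwards, and in Rpl28, Rpl35 and Rpl22l1 further pyrimidines lie directly before the marked letters.

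Rpl28, chr7:4792950-4792979, plus strand: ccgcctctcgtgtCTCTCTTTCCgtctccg
Rpl35, chr2:39005117-39005146, minus strand: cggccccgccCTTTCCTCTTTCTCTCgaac
Rps6, chr4:86857353-86857382, minus strand: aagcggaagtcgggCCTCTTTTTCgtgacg
Rps18, chr17:33955651-33955680, minus strand: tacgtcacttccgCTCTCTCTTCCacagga
Rps27, chr3:90213634-90213663, minus strand: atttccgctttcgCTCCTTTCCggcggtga
Rpl22l1, chr3:28805493-28805522, plus strand: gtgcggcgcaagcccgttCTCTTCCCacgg
Rpl4, chr9:64173372-64173401, plus strand: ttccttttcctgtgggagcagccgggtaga
Rpsa, chr9:120127751-120127780, plus strand: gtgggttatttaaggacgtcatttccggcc

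A RefSeq start window was found for 66 of the 87 genes, and 30 of the 66 (45.5%) held such a run, against 21.2% of the 27025 genes with a window. A start base of C opening a run of at least 5 pyrimidines was found in 17.9% of the 78 start windows of ribosomal protein genes and in 2.51% of the windows of all genes. In the windows above, the marked stretch opens 1 or more bases before the annotated start in Rpl28, Rpl35, Rps6, Rps18 and Rps27 and after it in Rpl22l1. A match is a description of these letters, and a window without one says only that no such stretch begins that near to the annotated start. The Rpl4 window, for example, holds a run of C and T farther before the start.

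Gene counts per library were 10143846 and 9855883 in ROM, 7783537 to 15156318 in SAL, and 12046120 to 13280615 in WT. Shank3 itself, counted over the whole gene, had 315 and 313 CPM (read counts scaled to the library's size) in ROM, 252 to 316 CPM in SAL and 299 to 348 CPM in WT, and since reads outside exon 21 are included these values do not check the deletion. The labels give the cell type as neurons, but all 10 astrocyte, 10 oligodendrocyte and 12 microglia markers were detected, with summed levels of 5710 to 7463, 3095 to 5699 and 546 to 767 CPM over the 8 libraries, beside 12568 to 14042 CPM for 10 neuron markers. In such bulk RNA, fewer cells of a type and less RNA per cell cannot be told apart. WT3 stood apart from the other WT libraries: of all tested genes, 54 passed the test between SAL and WT without it, and 1 passed with all 8 libraries. SAL2 also stood apart: a chi-square statistic per degree of freedom over all genes was 9.44 and 8.67 between SAL2 and the other SAL libraries, against 4.59 between SAL1 and SAL3. Rn45s, the 45S ribosomal RNA precursor, was at 11363 CPM in SAL2 and at 3157 to 6066 CPM in the other 7 libraries. Its part in the results was not tested.

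The ribosomal protein genes took a small and steady share of all gene counts. Their share was 1.37% and 1.29% in ROM, 1.38%, 1.31% and 1.37% in SAL, and 1.25%, 1.19% and 1.38% in WT. The ROM and SAL values lay close together, and WT3 reached the level of the highest SAL library while WT2 was the lowest of all. Here CPM are taken over the library's TMM-scaled total, where TMM is edgeR's trimmed-mean scaling.

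Reads reached 81 of the 87 genes often enough for a test. The 6 genes left out by the filter on low counts were Rpl10l, Rpl26, Rpl37rt, Rpl39l, Rpl3l and Rps27rt, of which all but Rpl26 are paralogs. Rpl3l, a striated muscle paralog, had 17 reads over all 8 libraries. Rpl39l, known from male germ cells, had 6 reads, and Rpl10l, a testis paralog of Rpl10, had 0.

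Among the 73 canonical genes at 10 CPM or more, mean levels over the 8 libraries ran between 66.9 CPM (Rps26, small subunit) and 447 CPM (Rpl4, large subunit). Per kilobase of annotated exon, the highest levels were 628 ± 27.6 CPM per kb for Rplp1, an acidic protein of the ribosomal stalk that recruits elongation factors, and 468 ± 41.2 for Rps29, a small subunit zinc-binding protein (SD, n = 8). Next in this order came Rps15 at 431 ± 29.3, Rps21 at 376 ± 30.6 and Rpl41, the smallest ribosomal protein, at 360 ± 24.2 CPM per kb. Rpl13, of the large subunit, followed at 345 ± 27.5 CPM per kb. Rplp1 exceeded Rps29, and Rps15 exceeded Rps21, by more than 1 SD. Rps29 and Rps15, and Rps21 and Rpl41, differed by less than the larger SD of the pair. These SDs are spreads over the 8 libraries, which all genes share, so they do not test whether 1 gene exceeds another. The order of the levels also depends on the transcript assumed. On the RefSeq-linked transcript Rpl41 had 591 CPM per kb and ranked second, and Rpl9, of the large subunit, had 437 CPM per kb and ranked above Rps21, against 118 CPM per kb over all annotated exons.

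The low end of the family held 4 canonical genes that stood far from the rest. Rpl26, a protein of the large subunit, had 1 read in all. Rpl30 had 96 reads and a level of 0.936 ± 0.398 CPM per kb. Rpl34 had 141 reads and 1.43 ± 0.255 CPM per kb, and Rps27 had 93 reads and 2.165 ± 0.632 CPM per kb. These values stand against a lowest level of 23.3 CPM per kb (Rps15a) among the other canonical genes, although all 4 encode canonical ribosomal proteins.

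Many members have processed pseudogenes, which are reinserted copies of their messenger RNA. Of 50-base windows of each gene's transcript, a median of 53.1% also occurred exactly, on either strand, in transcripts of other genes in GENCODE M21. At least 1 window was shared with an annotated pseudogene in 84 of 87 genes. The other genes include neighbours that overlap the same locus, where a shared window does not mean a further position in the genome. The shared part was 71.3% in Rpl26, 79.2% in Rpl30, 98.6% in Rps27 and 37.9% in Rpl34, but 92.1% in Rpl10, which had 271 CPM per kb. In Rpl30 the gene sharing the most windows was D730044K07Rik, and 55.0% of Rpl30 exon bases overlap other genes on the opposite strand. Reads with more than 1 best position made up 15.5% to 18.1% of alignments in the 7 libraries whose tables report them and were not given to genes. The highest value was in WT3 and the lowest in WT1, and the part of this measure in library differences was not tested. Levels of members with shared sequence are therefore uncertain, and the part of shared sequence in the low counts was not tested.

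**Figure D1:**
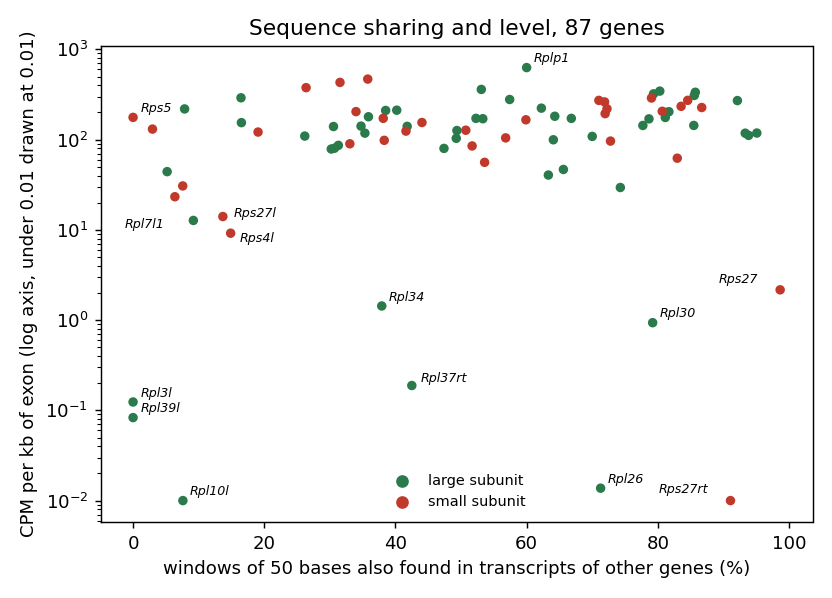
Share of each gene's 50-base windows that also occur in transcripts of other genes (x axis, percent) against its mean level over 8 libraries in CPM per kb of exon (y axis, log scale, values under 0.01 drawn at 0.01), 1 point per gene, 87 genes. Genes above 20 CPM per kb occur at low and at high sharing, and Rpl26, Rpl30, Rpl34 and Rps27 lie near or under 2 CPM per kb. Windows were matched on either strand, and other genes include neighbours that overlap the same locus.

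Ribosomal protein genes varied together over the libraries and varied little. The coefficient of variation over the 8 libraries had a median of 6.15% for the 73 canonical genes at 10 CPM or more. It was 8.57% for 10172 other tested genes at 10 CPM or more. The sets share only this floor and were not matched for level, since the 73 genes began at 66.9 CPM. The part of read depth in this difference was not tested. Rpl12 had the smallest coefficient of variation at 2.70%, and Rps2 had the largest of the 73 at 11.96%. The correlation of a gene's log2 CPM with the mean of the other members had a median of 0.79 over 8 libraries, and 39 of 81 genes had a value above 0.8. Among 14728 tested genes outside the family, 1.16% had such a correlation with the family mean. These correlations are descriptions, since all genes share the libraries, their depth and their scaling.

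The members did not all follow. Rpl30, Rpl34 and Rps27, with few reads, had negative correlations, the lowest being -0.46 for Rpl34. Rpl7l1, a paralog of Rpl7 known from ribosome biogenesis, had 0.00, and Rpl36al, a retrogene copy of Rpl36a, had 0.01. Outside the family, the genes with the highest correlations with its mean were picked among tested genes at a mean log2 CPM of at least 5. They included Arl4c (r = 0.97), a small GTPase, Sparcl1 (0.95), an astrocyte-secreted matrix protein, and Phactr3 (0.95), a phosphatase and actin regulator. Thra (0.92), the thyroid hormone receptor alpha, and Pum2 (0.91), an RNA-binding repressor of translation, followed. The lowest correlation of any tested gene outside the family was -0.98.

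**Figure D2:**
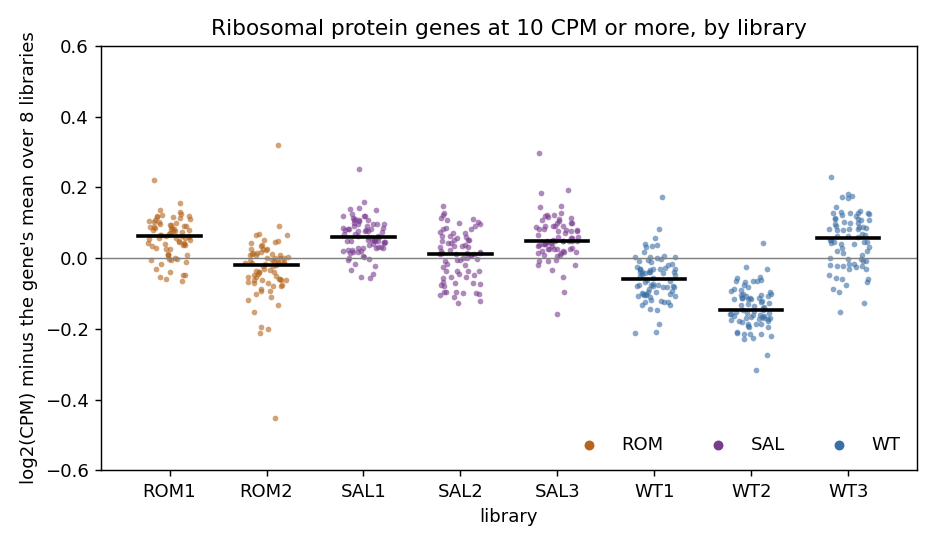
Each point is 1 of 76 ribosomal protein genes at 10 CPM or more, plotted as log2 CPM minus the gene's mean over the 8 libraries (y axis) for each library (x axis), with the median as a bar. WT2 lies lowest, with 55 of the 81 tested genes at their minimum there, and WT3 lies with SAL1, SAL3 and ROM1.

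Between SAL and WT, the question was how ribosomal protein genes differ in Shank3-deficient cortex without the drug. Of 81 genes, 76 had a higher mean in SAL, by a median of 0.08 on the log2 scale, a fold of 1.06, while 51.3% of the 14809 tested genes were higher and their median was 0.00. Of 693 tested genes outside the family with transcripts of at most 1000 bases, 415 were higher, with a median of 0.04. No ribosomal protein gene passed edgeR's quasi-likelihood test with Benjamini-Hochberg adjustment over all tested genes, where 0.00675% of all genes passed. The smallest adjusted p among members was 0.418, and neither DESeq2 nor limma-voom called a member. At an unadjusted p under 0.05, there were 8 members, or 9.88%, beside 8.39% of all genes, so that the share over both directions is near the background. All 8 were higher in SAL, while among all tested genes 531 were higher and 711 lower.

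The size of the shift depended on single WT libraries. Without WT2 the median difference was 0.04, with 58 genes higher and 23 lower in SAL, and without WT3 it was 0.13, with 78 higher. Without SAL2 it was 0.11, with 76 higher. The median difference was 0.09 for 48 large subunit genes and 0.08 for 33 small subunit genes. It was 0.07 for the 36 genes with under 50% of their windows shared and 0.09 for the 45 others.

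**Figure D3:**
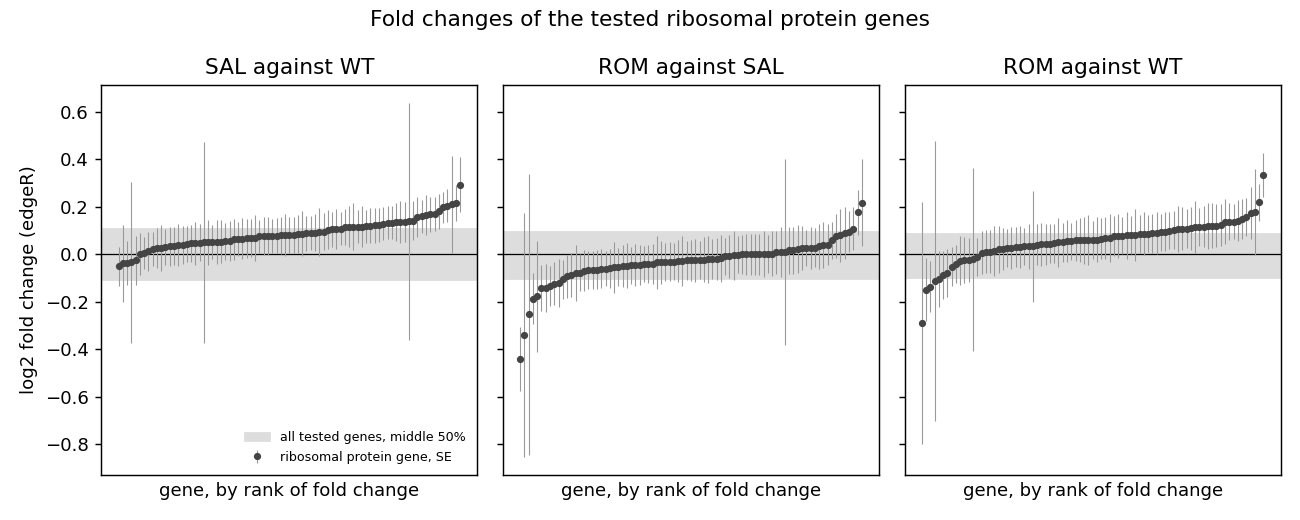
Log2 fold change (y axis, edgeR) with its standard error for the 81 tested ribosomal protein genes, ordered by size within each comparison, with the middle 50% of all tested genes in grey. In SAL against WT, 76 genes lie above 0, in ROM against SAL 28 do, and in ROM against WT 67 do.

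All SAL libraries lay above all WT libraries in 18 of the 81 genes, or 22.2%, beside 6.26% of all tested genes. The reverse was seen in 0 members, beside 6.36% of all genes. In the large subunit these were Rpl3, Rpl4, Rpl5, Rpl6, Rpl7, Rpl7a, Rpl10a, Rpl17, Rpl18, Rpl19, Rpl31, Rplp0 and the paralog Rpl22l1. In the small subunit they were Rps2, Rps3, Rps3a1, Rps4x and Rps6.

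Rpl7, a large subunit protein, had 212, 209 and 210 CPM in SAL, against 184, 179 and 188 CPM in WT. The SAL libraries were close together and all above WT, with a log2 fold change of 0.20 ± 0.07 (SE) and an adjusted p of 0.418. Rpl10a, the protein of the L1 stalk beside the site where spent tRNA leaves, had 123, 128 and 130 CPM in SAL, against 113, 106 and 112 CPM in WT. Its groups did not overlap either, and its log2 fold change was 0.20 ± 0.07, with an adjusted p of 0.425.

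Rpl3, which reaches to the peptidyl transferase centre, had 435, 437 and 443 CPM in SAL, against 416, 370 and 375 CPM in WT, where WT1 was the highest. Its log2 fold change was 0.18 ± 0.07, with an adjusted p of 0.518. Rpl31, at the rim of the peptide exit tunnel, had 176, 175 and 169 CPM in SAL and 149, 140 and 160 CPM in WT, with a log2 fold change of 0.22 ± 0.08 and an adjusted p of 0.445. Its exons overlap those of Tbc1d8 on the other strand, and reads from the pair cannot be told apart without strand. Rpl4, an exit tunnel protein, had 460, 469 and 464 CPM in SAL and 423, 415 and 441 CPM in WT, again without overlap.

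Rps6, the small subunit protein phosphorylated by S6 kinase downstream of mTORC1, had 239, 253 and 260 CPM in SAL, against 236, 220 and 229 CPM in WT. The lowest SAL value lay just above the highest WT value, and the adjusted p was 0.629. Rps3, at the messenger RNA entry site, had 266, 253 and 262 CPM in SAL, against 234, 228 and 252 CPM in WT. Rps3a1, of the small subunit, had 281, 272 and 288 CPM in SAL, against 242, 237 and 269 CPM in WT, and WT3 came closest to SAL in both genes.

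Rplp0, the base of the ribosomal stalk, had 204 and 188 CPM in ROM, 193, 192 and 205 CPM in SAL, and 180, 176 and 187 CPM in WT. Every Shank3+/ΔC library lay above every WT library, with an adjusted p of 0.680 for SAL against WT. Rplp1, which pairs with Rplp2 on that base, had 323 and 306 CPM in ROM, 319, 324 and 322 CPM in SAL, and 291, 296 and 327 CPM in WT, where WT3 exceeded all others. Rpsa, a small subunit protein also known as the laminin receptor, had 409 and 404 CPM in ROM, 417, 392.3 and 410 CPM in SAL, and 371, 346 and 408 CPM in WT, with WT3 inside the SAL range.

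A lower mean in SAL was seen in 5 genes, Rpl22, Rplp2, Rpl7l1, Rps27l and Rpl34. Rpl22, a large subunit protein that is not essential in mice, had 90.1, 86.8 and 92.0 CPM in SAL, against 88.1, 87.3 and 103 CPM in WT. Rplp2, a stalk protein beside Rplp1, had 84.7, 78.7 and 87.2 CPM in SAL, against 87.7, 74.6 and 94.9 CPM in WT. The ranges overlapped in both genes, and all 5 differences were at most 0.05 on the log2 scale in size. Each of these 5 turned positive when 1 library was left out.

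Most of the canonical genes with SAL above WT in every library had long coding sequences. The paralog Rpl22l1, with 366 coding bases, is also among the 18 but is not counted in what follows. Among the 73 canonical genes at 10 CPM or more, the 17 without overlap had a median coding length of 792 bases, and the other 56 had 432 bases. Of 30 genes with at least 500 coding bases, 16 had all SAL above all WT, and of 43 shorter genes 1 did, which was Rpl31. Over all tested genes of any length, 6.26% did. WT3 was the highest WT library in 22 of the 30 longer genes and in 41 of the 43 shorter ones, so these counts depend on WT3. Genes of like coding length outside the family were not compared. The limit of 500 bases was chosen after the values were seen, so these counts are a description. The median log2 difference between SAL and WT was 0.12 in the longer genes and 0.07 in the shorter ones.

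The level in WT3 also went with coding length. Its log2 CPM was above the mean of WT1 and WT2 by a median of 0.10 in the 30 longer genes and of 0.18 in the 43 shorter ones. Rps29, with 168 coding bases, had 193, 182 and 188 CPM in SAL, against 168, 164 and 205 CPM in WT. Rpl37, with 291 coding bases, had 74.4, 74.1 and 78.0 CPM in SAL, against 66.8, 67.4 and 84.2 CPM in WT. In both genes WT3 was the highest of the 8 libraries and the other WT libraries lay below all SAL libraries.

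Without WT3, the median difference between SAL and WT was 0.15 in the longer genes and 0.13 in the shorter ones. Over the 73 genes, coding length had a correlation of 0.41 with the SAL against WT difference and of -0.60 with the excess in WT3. All points share the same libraries. In the 693 short-transcript genes outside the family, the median excess of WT3 was -0.00, against 0.15 in the 81 members and 0.01 in all genes.

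**Figure D4:**
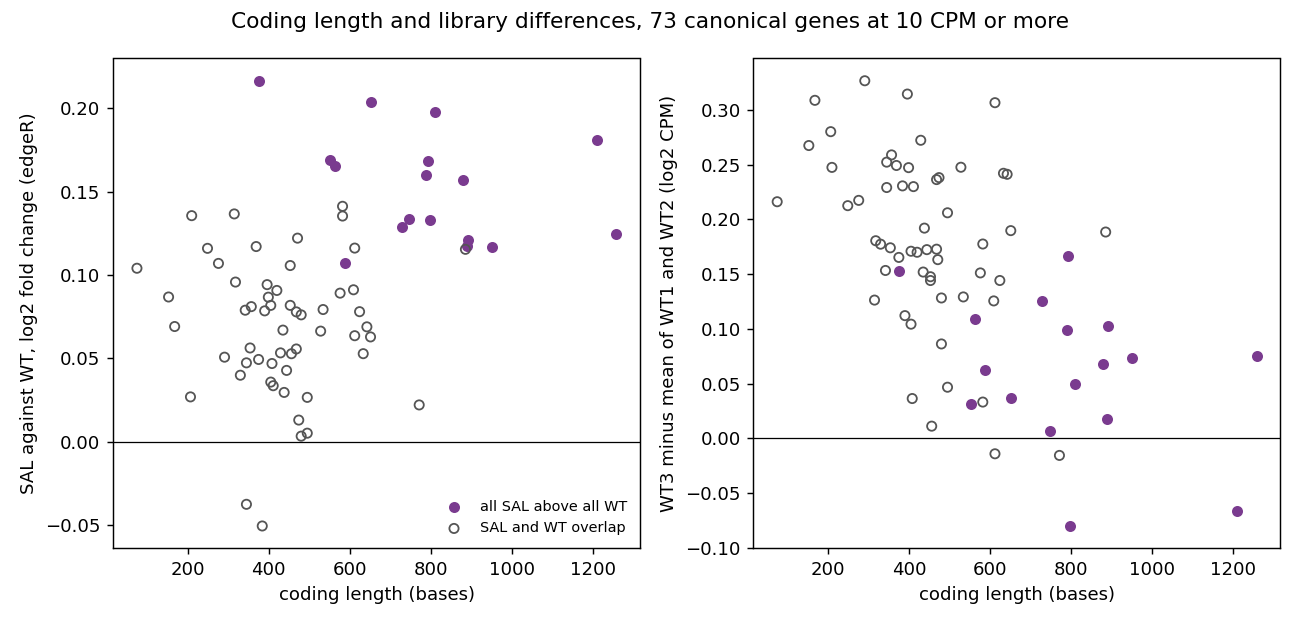
Coding length in bases (x axis) of 73 canonical ribosomal protein genes against the log2 fold change of SAL against WT (left) and against the log2 CPM of WT3 minus the mean of WT1 and WT2 (right). Filled points are the 17 genes with all SAL libraries above all WT libraries, of which 16 have at least 500 coding bases.

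Between ROM and SAL, which asks what romidepsin does in Shank3+/ΔC mice, differences of the members were small. Of 81 genes, 28 were higher and 53 lower in ROM, with a median of -0.03, against 49.0% higher and a median of -0.00 for all tested genes. No member passed edgeR's test, and neither did any other gene (0%), while DESeq2 and limma-voom also called no member. At an unadjusted p under 0.05 there was 1 member, Rpl22l1, beside 3.26% of all genes. All ROM libraries were above all SAL libraries in 3 members (Rpl27, Rps28 and Rps4x), beside 10.8% of all genes, and below them in 12, or 14.8%, beside 10.2%.

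The direction of the median rested on ROM2. Without ROM2 the median was 0.03, with 52 genes higher, and without ROM1 it was -0.06, with 14 higher. Without SAL2 it was -0.05, with 15 higher. The 2 ROM libraries differed in most members, as the plot by library shows, with 65 genes above their own mean in ROM1 and 31 in ROM2. The comparisons of ROM and of WT with SAL share the 3 SAL libraries, so that their values are linked.

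Rpl22l1, the paralog of Rpl22 that can take its place in the large subunit, had 25.6 and 18.9 CPM in ROM, against 30.9, 28.2 and 31.8 CPM in SAL. WT libraries had 25.2, 23.1 and 25.9 CPM, so that SAL lay above both other groups without overlap. For ROM against SAL the log2 fold change was -0.44 ± 0.13, a fold of 0.737 with a 95% interval of 0.604 to 0.898, and its adjusted p was 1.00. For SAL against WT it was 0.29 ± 0.12, with an adjusted p of 0.511, and for ROM against WT it was -0.15 ± 0.13. Leaving out ROM2 gave -0.24 for ROM against SAL, and leaving out ROM1 gave -0.68.

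Rpl22 itself had 86.98 and 95.5 CPM in ROM, within the range of the other groups. As a share of Rpl22 counts, Rpl22l1 reached 29.4% and 19.8% in ROM, 34.3%, 32.5% and 34.6% in SAL, and 28.6%, 26.5% and 25.1% in WT. Rpl22 protein is known in mice to bind and lower Rpl22l1 messenger RNA. The gene lies at chr3:28805436-28807424 on the plus strand of GRCm38, 28.3% of its exon bases overlap Gm33051 on the other strand, and 65.6% of its windows are shared, among others with 3 pseudogenes.

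The other detected paralogs showed no separation of the groups. Rpl36al had 56.6 and 47.2 CPM in ROM, 52.7, 60.6 and 56.4 CPM in SAL, and 54.5, 56.3 and 53.9 CPM in WT. Rpl7l1 had 41.4 and 34.8 CPM in ROM, 42.5, 42.1 and 35.7 CPM in SAL, and 44.8, 38.9 and 39.2 CPM in WT. Rps27l, known as a p53 target, had 9.75 and 8.33 CPM in ROM, 8.52, 7.33 and 7.31 CPM in SAL, and 7.41, 7.68 and 8.86 CPM in WT. The counts of Rps27l, 740 reads over all libraries, exceeded the 93 reads of canonical Rps27, whose sequence is nearly all shared.

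Other members with lower means in ROM than in SAL without overlap were small. Rpl37 had 69.9 and 62.6 CPM in ROM, against 74.4, 74.1 and 78.0 CPM in SAL, with a log2 fold change of -0.19 ± 0.11. Rps21, Rps23 and Rps13, of the small subunit, differed by -0.14, -0.14 and -0.13 on the log2 scale. Without ROM2 the difference was -0.11 for Rpl37 and -0.073 for Rps21. Rpl41 had 259 and 246 CPM in ROM, against 261, 271 and 276 CPM in SAL. On the other side, Rpl27, of the large subunit, had 94.8 and 91.5 CPM in ROM, against 86.2, 84.3 and 91.2 CPM in SAL, and the groups were separated by less than 1 CPM. Rps28, of the small subunit, had 81.9 and 75.6 CPM in ROM, against 75.2, 75.2 and 71.7 CPM in SAL, again nearly touching. Without ROM1 the log2 difference was 0.030 for Rps28, against 0.088 with both ROM libraries.

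Rps2, a small subunit protein at the messenger RNA entry channel, had 345 and 414 CPM in ROM, 359, 321 and 327 CPM in SAL, and 310, 283 and 310 CPM in WT. ROM2 had the highest value of the 8 libraries, ROM1 lay within SAL, and both SAL and ROM lay above WT. The log2 fold change was 0.18 ± 0.09 for ROM against SAL and 0.33 ± 0.09 for ROM against WT, where the adjusted p was 0.999. Without ROM2 the value was 0.038 for ROM against SAL and 0.20 for ROM against WT, and without ROM1 it was 0.30 and 0.46. With 79.0% of its windows shared, among others with 71 pseudogenes, the level of Rps2 is uncertain.

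**Figure D5:**
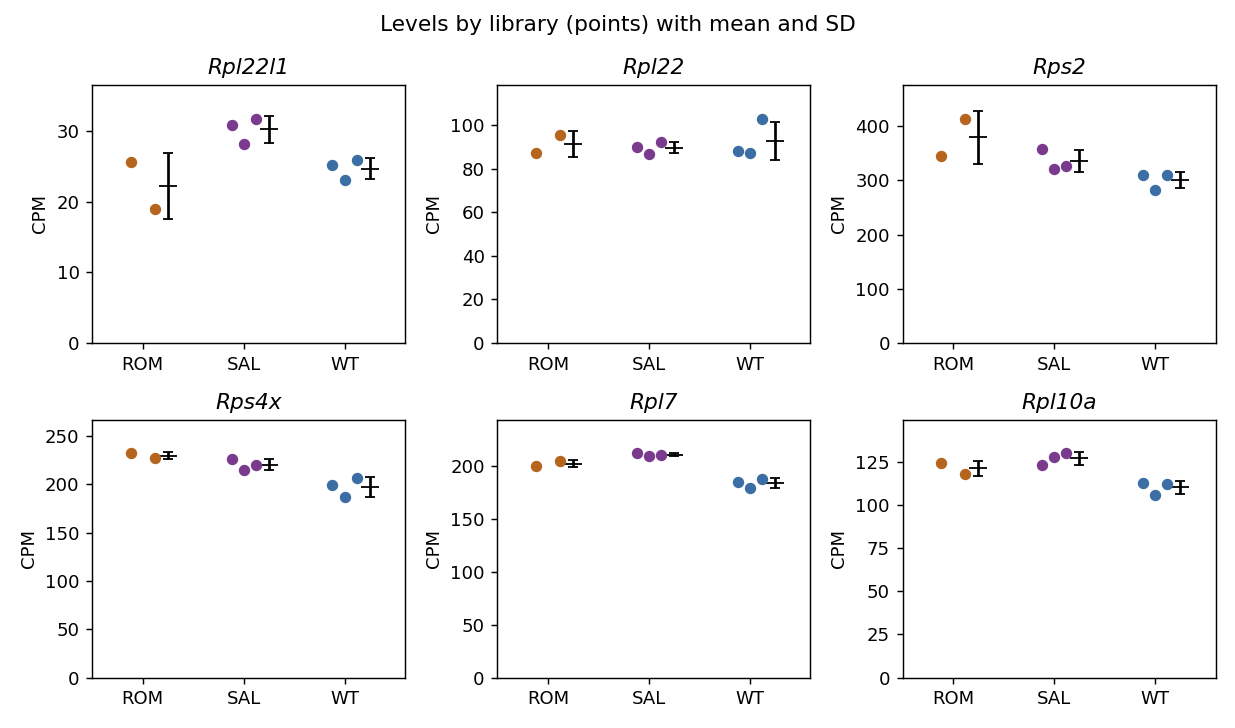
CPM in each library (points) with the group mean and SD for 6 ribosomal protein genes, in ROM (n = 2), SAL (n = 3) and WT (n = 3). Rpl22l1 is highest in SAL and lowest in ROM2, Rps2 is highest in ROM2, and Rps4x, Rpl7 and Rpl10a are lower in all WT libraries than in all others, with Rpl22 overlapping in all groups.

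Between ROM and WT, 67 members were higher and 14 lower, with a median of 0.06, while 7407 of all 14809 tested genes were higher and their median was 0.00. No member passed the test, beside 0.00675% of all genes, and DESeq2 and limma-voom called none. At an unadjusted p under 0.05 there were 2 members, Rps2 and Rps4x, beside 3.24% of all genes. All ROM libraries lay above all WT libraries in 11 members, or 13.6%, beside 9.34% of all genes, and below them in 0, beside 9.08%. Without WT2 the median was 0.01.

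Rps4x, the X-linked form of a small subunit protein, had 232 and 227 CPM in ROM, 226, 215 and 220 CPM in SAL, and 199, 187 and 206 CPM in WT. The 3 groups did not overlap, with ROM the highest and WT the lowest. The log2 fold change was 0.22 ± 0.08 for ROM against WT, with an adjusted p of 0.999, and 0.16 ± 0.07 for SAL against WT, with an adjusted p of 0.559. Its paralog Rps4l had 10.4 and 6.28 CPM in ROM, 11.3, 7.86 and 8.85 CPM in SAL, and 7.16, 8.96 and 8.39 CPM in WT, with ranges that overlapped throughout.

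Other proteins and RNAs of the same system were read from fixed lists. Fau, which encodes a small subunit protein but lies outside the naming rule, had 167 and 165 CPM in ROM, 164, 160 and 165 CPM in SAL, and 160, 141 and 165 CPM in WT. Gnb2l1, which encodes the ribosome-bound scaffold Rack1, had 175 and 169 CPM in ROM, 165, 162 and 181 CPM in SAL, and 161, 154 and 163 CPM in WT. The SAL and WT ranges overlapped in both genes. Of 20 genes for elongation factors and other TOP messenger RNAs, 16 were higher in SAL than in WT, with a median of 0.08, and 16 were higher in ROM than in WT, with a median of 0.04. Eef1a1, the factor that delivers aminoacyl-tRNA, had 1838 and 1772 CPM in ROM, 1884, 1823 and 1787 CPM in SAL, and 1642, 1602 and 1667 CPM in WT. Both Shank3+/ΔC groups lay above WT in this gene, yet its adjusted p for ROM against WT was 0.999. Naca, a subunit of the complex that shields nascent chains at the exit tunnel, had 140 and 145 CPM in ROM, 150, 162 and 164 CPM in SAL, and 140, 142 and 141 CPM in WT, so that SAL lay above both other groups. None of the 20 passed the test in any comparison.

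Genes that build ribosomes were higher and lower in similar numbers. Of 59 ribosome biogenesis factors, 27 were higher and 32 lower in SAL than in WT, with a median of -0.00, and 4 had an unadjusted p under 0.05. Ncl, the nucleolar protein nucleolin, had 234 and 234 CPM in ROM, 249, 272 and 249 CPM in SAL, and 228, 214 and 202 CPM in WT. SAL lay above both other groups, and its log2 fold change of 0.26 ± 0.07 between SAL and WT had an adjusted p of 0.359, smaller than that of any ribosomal protein gene. Of 19 RNA polymerase I genes, which transcribe ribosomal RNA, 8 were higher and 11 lower, with a median of -0.05. Of 31 mTORC1 and TOP translation regulators 16 were higher, and of 11 p53 and ribosomal stress readouts 3 were. Of 8 small nucleolar RNA host genes, 4 were higher. In ROM against SAL, these lists had medians between -0.06 and -0.00. In ROM against WT the medians were -0.08 for the small nucleolar RNA hosts, -0.05 for RNA polymerase I, -0.05 for the p53 readouts, -0.01 for biogenesis factors and 0.02 for mTORC1 regulators, beside 0.06 for the ribosomal protein genes, and none of their genes passed in any comparison.

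Markers of other cell types also differed in direction between the groups, though none passed the test. In SAL against WT, 12 of 12 meningeal and fibroblast markers were higher, with a median of 0.65, and their summed level was 127 to 288 CPM in SAL and 117 to 188 CPM in WT. In ROM against SAL, all 12 were lower and 10 of 10 oligodendrocyte markers were lower, with summed levels of 3407 to 3933 CPM in ROM and 3095 to 5699 CPM in SAL for the oligodendrocyte markers. In ROM against WT, 10 of 10 oligodendrocyte markers were lower, with a median of -0.30. All 12 meningeal and fibroblast markers were higher in ROM than in WT, with a median of 0.32 and a summed level of 147 to 212 CPM in ROM. In ROM against WT, 12 of 12 microglia markers were also higher, with summed levels of 665 to 767 CPM in ROM and 546 to 752 CPM in WT. Of 14 endothelial and mural markers, 13 were higher in ROM than in SAL, with summed levels of 357 to 433 CPM in ROM and 297 to 399 CPM in SAL, and 9 were lower in SAL than in WT. Of 6 tested olfactory bulb markers, 5 were lower in ROM than in SAL, with a median of -1.24, and 5 were higher in SAL than in WT, with a median of 0.83. The summed level over 8 such markers was 149 to 159 CPM in ROM, 142 to 196 CPM in SAL and 140 to 172 CPM in WT, and Eomes, among them, was at 3.77 and 4.87 CPM in SAL2 and SAL3 and under 1 CPM elsewhere. Of 8 red blood cell markers, 6 were at 0 in all libraries. The part of these cell types in the ribosomal protein values was not tested.

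Genes with and without the pyrimidine run at the start had similar medians. In SAL against WT, the median was 0.08 for 29 tested genes with a run and 0.09 for 31 with a window and no run. In ROM against SAL the medians were -0.02 and -0.03, and in ROM against WT they were 0.06 and 0.08. Of the genes printed above, Rps6 and Rpl22l1 with a run and Rpl4 without one had all SAL libraries above all WT libraries. In Rpl28, Rpl35, Rps18 and Rps27 with a run and Rpsa without one, the SAL and WT ranges overlapped.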

How the data were processed

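Poly(A) RNA of prefrontal cortex was sequenced in 8 libraries (ROM 2, SAL 3, WT 3). The authors deposited unnormalized read counts by gene symbol, with a table for each library. Per the submitters' processing notes, bcl2fastq 2.17.1.14, TopHat2 2.1.1 and HTSeq 0.6.1 were used with the mm10/GRCm38 build. The annotation and strand setting were "not given in the sources used here". A chi-square test found no pair of libraries within sampling noise.

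Counts on named genes were filtered (edgeR's filterByExpr), scaled by TMM and tested with edgeR 4.0.16 quasi-likelihood fits over all 3 groups, on 14809 genes, with Benjamini-Hochberg adjustment at 0.05. The tests were checked on simulated counts. DESeq2 1.42.0, limma 3.58.1 (voom), other scalings, no filter, 2-group fits, each library left out and a replicate block were alternatives. The 1 gene found in some but not all tables, with a highest count of 1, was left out. Levels per length, window sharing and positions use GENCODE M21, and start sequences use RefSeq. Named were up to 6 members per direction and comparison, by unadjusted p, the 6 highest and 6 lowest per length, paralog pairs, and outside genes most like the family mean, of which 1 is not reported here. Other named members were chosen for their role or after their values were seen. The members and lists were chosen with earlier results of these data known. Depth was 7783537 to 15156318 counts on genes per library, so members with few reads carry the widest errors.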

Additional observations from a re-analysis of the deposited data

How the results depend on the processing

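No ribosomal protein gene passed the test under any alternative, in any comparison. The genes passing among all tested genes moved: in SAL against WT there was 1 as reported, 12 without the filter on low counts, 31 with DESeq2, 2 with only the groups compared and 1 to 54 with 1 library left out. In ROM against SAL there were 2 with DESeq2 and 0 to 3 with 1 library left out. In ROM against WT there were 0 with upper-quartile scaling, 0 with library totals, 2 without the filter, 4 with DESeq2 and 0 to 3 with 1 library left out. The cause was not tested.

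Members lower in SAL than in WT numbered 8 without the filter and 3 to 23 with 1 library left out. In ROM against SAL, leaving out 1 library gave 14 to 52 members higher and 29 to 67 lower, and in ROM against WT it gave 9 to 31 lower. Leaving out 1 library turned the sign of small differences in SAL against WT, with log2 ranges of -0.072 to 0.043 for Rpl7l1, -0.15 to 0.13 for Rpl34, -0.095 to 0.025 for Rpl22, -0.13 to 0.037 for Rplp2 and -0.13 to 0.039 for Rps27l. In ROM against WT the ranges were -0.18 to 0.0011 for Rps23, -0.38 to 0.052 for Rpl22l1, -0.24 to 0.015 for Rpl7l1 and -0.22 to 0.045 for Rpl36al. Levels per length moved with the transcript: on the longest and on the RefSeq-linked transcript they were 474 and 474 CPM per kb for Rps15, 444 and 591 for Rpl41, 15.3 and 15.3 for Rpl7l1 and 2.22 and 2.53 for Rpl34, and on the RefSeq-linked transcript 2.90 for Rps27. Beyond the genes ranked highest and lowest, the RefSeq-linked transcript gave 437 CPM per kb for Rpl9 and 148 for Rpl18, against 118 and 29.5 over all annotated exons.

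The replicate numbers are shared between groups, and whether they pair the libraries cannot be told. Deviations from the group means had correlations of -0.18, 0.02 and -0.04 between same-numbered SAL and WT libraries. They were 0.10 and 0.06 between SAL and ROM, and -0.03 and 0.08 between WT and ROM. Libraries with unlike numbers had -0.16 to 0.24. With 2 or 3 libraries a group these deviations are tied to each other, so the values cannot decide. With a replicate block the genes passing were 4 in SAL against WT, 0 in ROM against SAL and 0 in ROM against WT, with medians over the members of 0.08, 0.00 and 0.10. No member was called under the block. Depth limits Rpl30, Rpl34 and Rps27, which had 5 to 23 reads per library.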
